A study of Mus musculus with 65 samples.

Results

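Among 32 single neurons of mice on a low-sodium diet, 9 had deposited values whose CPM (reads scaled to a common total) added up to far more than in the other 23, and these 9 cells are described here across 11875 genes. The series holds 65 neurons in all, and the remaining 33 came from mice on standard chow. A cell was put in the high-sum group if its CPM, obtained by undoing the log2 of each deposited log2(CPM + 1) value and subtracting 1, summed over all 12015 rows to more than 1200000. High sums ran from 1393471 to 2170050, with a median of 1625316. The 23 usual-sum low-sodium cells ran from 754874 to 1147326, and the 33 chow cells from 806262 to 1058067. All cells are labelled as HSD2 neurons of the nucleus of the solitary tract, from male mice of mixed strain that carried Hsd11b2-Cre and Ai9, a reporter allele of the red fluorescent protein tdTomato that Cre switches on. Red cells were picked by hand, and Smart-Seq2, a full-length cDNA method for single cells, and Nextera XT were used on the polyA RNA of each. The labels' protocol names Arc-ME as the digested tissue, while the tissue label of every cell is the nucleus of the solitary tract. Cre marks each cell in which the driver was ever active, and the labels give neither an animal for any cell nor the length of the diet. Each diet is therefore 1 sample, cells are not replicates of it, and no test was run. Every SD below is the spread over cells.

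HSD2 neurons make the enzyme 11-beta-hydroxysteroid dehydrogenase type 2, which inactivates glucocorticoids and so leaves the mineralocorticoid receptor open to aldosterone, the adrenal hormone of sodium need. They lie in the brainstem, are known for their part in sodium appetite, and signal with glutamate. A neuron spends much of its energy on restoring the ion gradients that firing uses up, which the mitochondria pay for, and the nuclear genes of the mitochondrial respiratory chain and of the ribosome are mostly short and transcribed at high rates.

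The values that chose the cells are sums over the same genes, so all differences below are descriptions. In short, the 9 cells had higher levels of Peg3, Ecel1 and Disp2 and, by the median, of genes with long transcripts. They had lower levels of most short transcripts for ribosomal proteins and the respiratory chain, and of Cartpt and Bdnf. The coding sequences of a pair of these short genes are shown because their levels in the 9 cells did not overlap those of the 23 on either scale used below and the whole protein is encoded in so few bases. Capitals mark the start and stop codons, and the sequences are those of GENCODE M21 on GRCm38.
Uqcr10: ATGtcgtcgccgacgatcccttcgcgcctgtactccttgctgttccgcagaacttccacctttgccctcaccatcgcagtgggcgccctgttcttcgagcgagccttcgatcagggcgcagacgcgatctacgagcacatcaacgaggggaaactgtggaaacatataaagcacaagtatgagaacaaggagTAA
Rpl38: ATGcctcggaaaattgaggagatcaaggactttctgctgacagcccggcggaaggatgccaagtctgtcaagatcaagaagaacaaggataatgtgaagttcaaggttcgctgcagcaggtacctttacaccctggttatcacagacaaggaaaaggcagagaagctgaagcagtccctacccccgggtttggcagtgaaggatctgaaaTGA
Uqcr10, a subunit of respiratory complex III, lies on chromosome 11 from 4701973 to 4704342 on the minus strand, with 2 exons, a transcript of 434 bases and a coding sequence of 195 bases. Rpl38, a protein of the large ribosomal subunit, lies on chromosome 11 from 114668524 to 114672331 on the plus strand, with 5 exons, a transcript of 364 bases and a coding sequence of 213 bases.

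The 9 cells differed from the 23 in several properties of the whole cell. Reads in the listed genes, recovered from the steps of the low values, numbered 218908 to 697348 in the 9 cells (median 454517), 50535 to 5319479 in the 23 (median 1089457) and 50081 to 3244251 in chow (median 602687). A single read stood for 2.07 to 9.91 CPM in the 9 cells and for 0.16 to 14.9 CPM in the 23. Detected genes had medians of 8131 in the 9 cells, 8252 in the 23 and 8246 in chow. Once every cell was thinned to 50000 reads the medians were 5662, 6622 and 6598. The 500 highest genes of a cell held a median of 48.7% of its reads in the 9 cells, 31.3% in the 23 and 36.5% in chow. This share was not taken at equal depth, and in the 23 it was 21.9% at 5319479 reads and 53.1% at 50535. It ran from 44.8% to 68.2% in the 9 cells. In the 6 usual-sum cells with reads within their range it ran from 32.3% to 42.5%. At equal depth the 9 cells thus had fewer detected genes by the median, although their range of 3997 to 6353 overlapped the 4655 to 8823 of the 23.

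The CPM sums followed the scale on which the values were made. Scaling factors were computed from the recovered reads by the trimmed mean of M values, a method that sets cells to the same level over the genes that differ least. Each cell's CPM sum times its factor lay between 988339 and 996500 in the 65 cells, with a coefficient of variation of 0.109%. The factors were 0.457 to 0.713 in the 9 cells and 0.866 to 1.31 in the 23. The same product had a coefficient of variation of 9.58% for factors from the median of ratios and of 15.0% for the upper quartile. The method by which the authors scaled the reads is not given in the sources used here. A high sum therefore went with a low factor of this kind. The 20 highest genes of a cell held a median of 8.89% of its reads in the 9 cells and 3.86% in the 23. This share too was not taken at equal depth. It ran from 6.91% to 12.7% in the 9 cells. In the 6 usual-sum cells with reads within their range it ran from 4.53% to 8.70%. The largest share, 13.3%, was that of low-sodium neuron 35, which had the lowest sum, the highest factor and 50535 reads. The part of this share in the sums was not tested. Because the scale differs between cells, each difference is given on the deposited values and again after each cell was rescaled to 1 total of 1000000.

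The labelled neuron numbers, which the rule did not use, also separated the cells. The 9 cells are low-sodium neurons 42, 45, 46, 47, 48, 49, 50, 51 and 57. Of the 10 low-sodium cells numbered 42 or above, 9 had a high sum, and of the 22 numbered 35 or below, 0 did. The exception is low-sodium neuron 52, with a sum of 987611. All 11 chow cells numbered 42 or above had usual sums. The labels do not say what the numbers stand for, so the high sum, the number and anything that went with it, such as a day or a batch of handling, cannot be told apart.

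**Figure D1:**
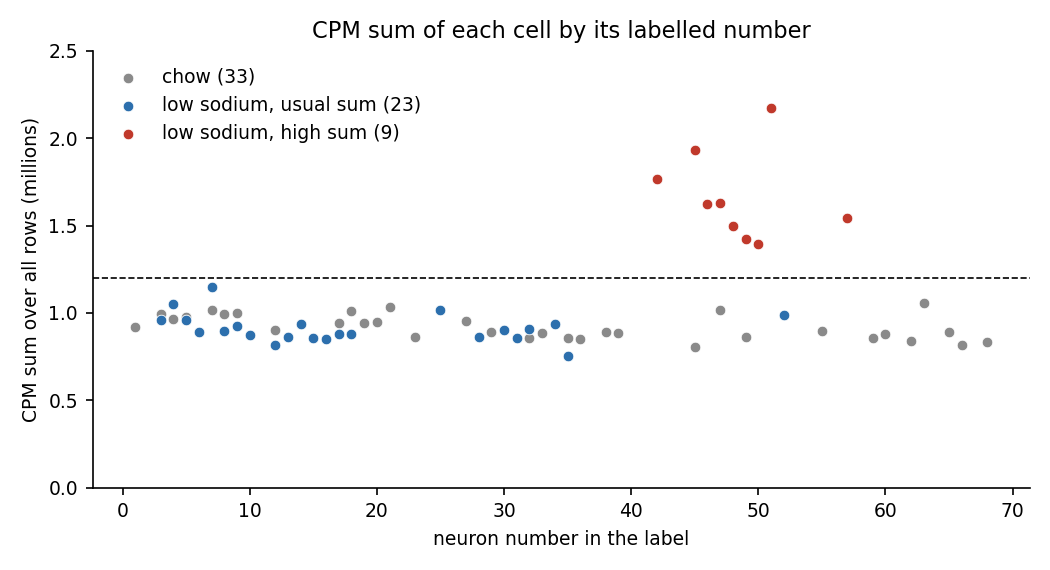
CPM sum over all rows (in units of 1000000, vertical axis) of each of the 65 cells by the neuron number in its label (horizontal axis); points are cells and the dashed line is the limit of 1200000. The 9 cells above the line are low-sodium neurons numbered 42 to 57, and low-sodium neuron 52 lies below it at 987611.

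The cells on each side of the limit were far apart. Low-sodium neuron 50, just above it at 1393471, had log2(CPM + 1) values of 12.57 for Peg3, 12.48 for Ecel1, 12.31 for Disp2 and 2.85 for Ndufb4. Low-sodium neuron 7, just below it at 1147326, had 9.39, 9.05, 9.95 and 6.05. Neuron 52 had 9.94, 10.07, 9.90 and 6.41.

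Over the 11875 genes, the difference of mean log2(CPM + 1) between the 9 and the 23 cells was 1 or more for 2288 genes (19.3%) and -1 or less for 2465 (20.8%). After rescaling, 1326 genes (11.2%) were higher and 4212 (35.5%) lower by that much. With factors from the median of ratios the counts were 2650 higher and 1962 lower, so the balance of higher and lower genes depends on the scale. Among the 10534 genes with a mean of at least 1 over the 32 cells, which are the ones used for the gene lists below, 21% were higher and 22.7% lower by 1 on the deposited values, and 12.2% and 39.2% after rescaling. The median difference of these genes was -0.14 on the deposited values and -0.66 after rescaling, a shift of -0.53. In 77 genes (0.648%) all 9 values lay above all 23 on the deposited scale, and in 10 (0.0842%) all 9 lay below. After rescaling the counts were 26 (0.219%) and 130 (1.09%), and 26 genes above and 10 below had no overlap on both scales. In 55 of the 77 genes all 33 chow cells lay below the 9 cells too, and in 6 of the 10 all chow cells lay above them.

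The 4 genes that mark the 9 cells show the size of the differences. Peg3, an imprinted zinc finger gene expressed from the paternal allele, ran from 12.57 to 13.61 in the 9 cells (median 13.09) and from 8.90 to 10.68 in the 23 (median 9.93). No value of one group fell within the other, and the means were 13.12 ± 0.35 (SD, n = 9) and 9.90 ± 0.42 (SD, n = 23), with chow at 10.16. Ecel1, a membrane-bound neuropeptidase-like protein of neurons, ran from 11.94 to 14.30 (median 12.70) against 7.82 to 11.49 (median 9.39). Its groups did not overlap on the deposited values but did so after rescaling. Disp2, a relative of the hedgehog release protein Dispatched, ran from 12.20 to 13.50 (median 12.54) against 7.55 to 10.07 (median 9.33), with no overlap on either scale. The differences of the 3 genes were 3.22, 3.25 and 3.42, and 2.36, 2.39 and 2.57 after rescaling. Ndufb4, a subunit of respiratory complex I, was found in 5 of 9 cells and in 23 of 23. It ran from 0 to 4.46 (median 2.20) against 4.28 to 6.49 (median 5.30), a difference of -3.50 (-3.94 rescaled). The groups touched on the deposited values and had no overlap after rescaling.

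Some genes had a large part in the high sums. Mean CPM was 9121 in the 9 cells and 993 in the 23 for Peg3, 9.19 times as high, 7852 and 858 for Ecel1, and 6569 and 650 for Disp2. In no chow cell did any of the 3 reach the lowest of the 9 cells. Rn45s, the precursor of ribosomal RNA, had 14858 against 5095 CPM, a larger excess (9763) than that of Peg3 (8128). Among the other genes with a large part, not all of them listed here, the tubulin gene Tubb4a had 5928 against 729 CPM. The transporter-like gene Slc22a17 had 5393 against 610, and Rasgrf1, which activates Ras on calcium entry, had 4476 against 709. The mean sums of the groups differed by 750985 CPM. The 20 genes with the largest part in it held 14.7% of that excess, 100 genes held 34.8% and 500 genes held 71.8%. The 871 genes (7.33%) with a difference of 2 or more held 66.8%, and 5555 genes (46.8%) had the higher mean CPM in the 9 cells.

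**Figure D2:**
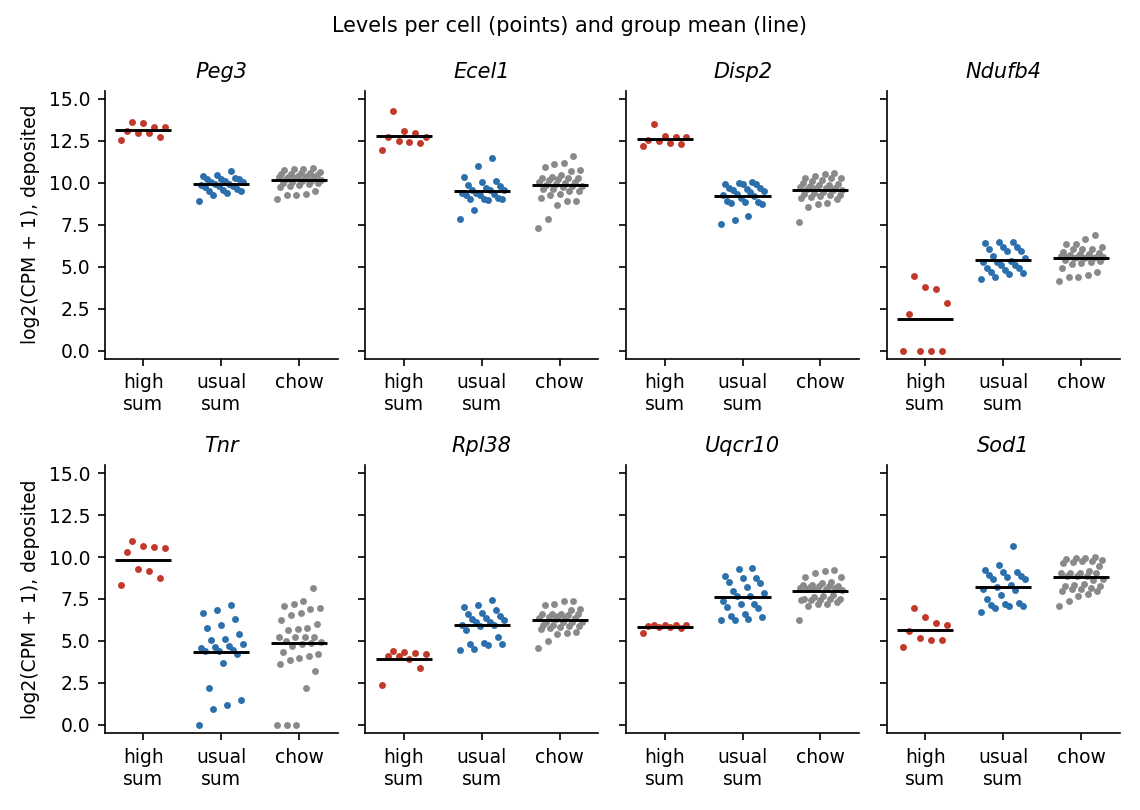
Deposited log2(CPM + 1) per cell (vertical axis) of 8 genes in the 9 high-sum, 23 usual-sum and 33 chow cells; points are cells and lines are group means. Peg3, Ecel1, Disp2 and Tnr lie above, and Rpl38 and Uqcr10 below, every cell of both other groups, while the ranges of Ndufb4 and Sod1 meet those of the usual-sum cells.

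The 12 highest differences after rescaling, among named genes found in at least 16 of the 32 cells, were those of Tmem94, Tnr, Tmem63c, Arsb, Trim23, Tet2, Radil, Spty2d1, Camk2a, Fn3krp, Shisa7 and Zfp266, at 4.80 to 4.04. Tnr, tenascin-R of the extracellular matrix around neurons, ran from 8.31 to 10.98 in the 9 cells (median 10.32) and from 0 to 7.12 in the 23 (median 4.62), with no overlap on either scale. Camk2a, a calcium-dependent kinase of synapses, ran from 9.67 to 11.78 (median 11.31) and from 0 to 8.76 (median 6.89), and had no overlap on the deposited values. Of the other 10, Tmem63c alone had none on the deposited values. Tet2, which oxidises methylated DNA, had means of 7.80 ± 1.96 (SD, n = 9) and 2.65 ± 2.55 (SD, n = 23), and was found in 9 and 14 cells. The 12 genes were found in 10 to 22 of the 23 cells, so part of each difference lies in cells at 0.

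The 12 lowest differences were those of Gbas, Fnip1, Hint2, Bdnf, Rpap3, Ndufb4, Cartpt, Nrip3, Ifrd1, Carkd, Cdv3 and Ccdc38, at -4.70 to -3.84. Bdnf, a neurotrophin that supports synapses, was found in 3 of 9 cells, 20 of 23 and 28 of 33 chow cells, and its means were 1.43 ± 2.33 (SD, n = 9) and 5.37 ± 2.82 (SD, n = 23). Hint2, a mitochondrial protein, ran from 0 to 3.95 (median 3.15) against 3.50 to 8.65 (median 6.03). Gbas, also mitochondrial, ran from 0 to 5.95 (median 3.39) against 5.91 to 7.87 (median 7.15). Both were without overlap only after rescaling. Ccdc38 was without overlap on both scales, at 0 to 2.40 (median 2.07) against 3.64 to 7.16 (median 5.00).

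Most genes of the respiratory chain and of both kinds of ribosome were lower in the 9 cells. Of the 70 nuclear-encoded genes of the respiratory chain and ATP synthase that could be compared, 49 were lower by 1 or more and 1 higher, with a median difference of -1.32 (-2.17 rescaled, where 62 were lower). Taken as the mean over these genes in each cell, the 9 cells ran from 6.11 to 6.92 and the 23 from 6.76 to 8.73. The groups overlapped slightly, since the lowest usual-sum cell lay under the highest of the 9. Uqcr10 ran from 5.45 to 5.96 (median 5.86) in the 9 cells and from 6.24 to 9.37 (median 7.68) in the 23, with chow at 6.28 to 9.20. All 9 values lay below every other cell. Ndufc1 and Ndufb11 of complex I differed by -2.26 and -2.22, and Cox7c of complex IV by -2.32. After rescaling 27 of the 70 genes had no overlap, all of them lower.

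Of 72 genes of the cytoplasmic ribosome, 61 were lower by 1 or more and 0 higher, with a median of -1.79 (-2.60 rescaled, 70 lower). The mean over these genes ran from 3.69 to 4.88 in the 9 cells, from 5.00 to 6.75 in the 23 and from 4.54 to 6.74 in chow. Here the 9 cells did not overlap the 23, while the lowest chow cell lay within their range. Rpl38 ran from 2.40 to 4.38 (median 4.11) in the 9 cells, from 4.43 to 7.45 (median 6.10) in the 23 and from 4.59 to 7.41 in chow. Rps28 and Rps21, of the small subunit, differed by -3.16 and -3.03. Ribosomal protein genes have many near-identical processed copies in the genome, so single levels are uncertain. Of 68 genes of the mitochondrial ribosome, which makes the respiratory subunits encoded in mitochondrial DNA, 46 were lower and 3 higher, with a median of -1.52 (-2.28 rescaled, 1 higher and 58 lower). Mrps18c, Mrps10 and Mrpl18 differed by -3.06, -2.86 and -2.67. Of 31 subunits of the proteasome, which degrades tagged proteins, 12 were lower and 0 higher, with a median of -0.86 (-1.70 rescaled, 29 lower), and Psmd8 differed by -1.89. The antioxidant enzyme gene Sod1 ran from 4.63 to 6.99 (median 5.58) in the 9 cells and from 6.75 to 10.64 (median 8.20) in the 23.

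Depth differed between the groups, and only 6 of the 23 usual-sum cells had reads within the range of the 9. Against these 6 alone, and relative to the median of all genes, the respiratory list lay at -2.02, where it was -1.19 against all 23. The cytoplasmic ribosomal list lay at -2.18, where it was -1.65, and the mitochondrial ribosomal list at -1.67, where it was -1.39. The glutamate and GABA receptor list, described next with other neuronal lists, lay at 0.83 against these 6 cells, where it was 1.38. For sodium channels the values were 1.14 and 1.25, and for chromatin regulators 0.93 and 0.97.

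Among genes of electrical excitability, more were higher than lower on the deposited values, and the balance changed with the scale. Of 10 voltage-gated sodium channel genes, which carry the upstroke of the action potential, 5 were higher by 1 and 2 lower, with a median of 1.11. After rescaling 1 was higher and 2 lower, with a median of 0.42. The auxiliary subunit genes Scn3b and Scn2b differed in opposite directions, by 2.22 and -2.23, and the pore gene Scn3a differed by 1.71. Of 15 calcium channel genes 7 were higher and 0 lower, with a median of 0.77 (0.18 rescaled, 6 higher and 1 lower). Of the 15, 1 reached the mean of 1 only through the 9 cells. Cacna1e, the pore of R-type channels, differed by 4.23, with SDs of 4.16 in the 9 cells and 2.47 in the 23, and Cacna1i, a T-type channel, by 2.88. Of 31 potassium channel genes, which repolarise the membrane, 14 were higher and 6 lower, with a median of 0.74 (0.02 rescaled, 11 higher and 8 lower). Of the 31, 2 reached the mean of 1 only through the 9 cells and had to be higher. Another 2 reached it only through the 23 cells and had to be lower. Over all 34 measured potassium channel genes the counts were again 14 and 6, with a median of 0.30 (-0.12 rescaled). Kcnip1, an auxiliary subunit of A-type channels, was at 10.30 ± 0.57 (SD, n = 9) and 6.94 ± 2.02 (SD, n = 23), without overlap on either scale. Kcnk9 and Kcnn3 differed by 3.90 and 3.70, with SDs in the 9 cells of 4.37 and 3.65.

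Synaptic genes also depended on the scale. Of 30 receptor genes for glutamate and GABA, 17 were higher by 1 and 1 lower, with a median of 1.25. After rescaling 10 were higher and 8 lower, with a median of 0.56. Here too 2 genes passed only through the 9 cells, and the median over all 33 measured was 1.09. The kainate receptor gene Grik2 differed by 3.85 and the metabotropic receptor gene Grm5 by 3.14. Of 31 genes of vesicle release, 13 were higher and 2 lower, with a median of 0.82. After rescaling 8 were higher and 7 lower, with a median of -0.03. Syn1, a phosphoprotein on vesicles, differed by 2.54, and the calcium sensor gene Syt1 was at 12.04 and 10.01, both without overlap on the deposited values only. Of 25 adhesion genes 13 were higher and 0 lower, with a median of 1.10 (0.26 rescaled, 8 higher and 1 lower), and the axonal adhesion gene L1cam was at 10.49 ± 0.72 (SD, n = 9) and 7.27 ± 1.53 (SD, n = 23). Of 31 genes of microtubules and spectrin 9 were higher and 2 lower, with a median of 0.24 (-0.61 rescaled, 5 higher and 9 lower), among them Tubb4a at a difference of 3.16 and Map2 at 2.37.

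Lists of nuclear function differed among themselves. Of 40 chromatin regulators, 19 were higher and 3 lower, with a median of 0.84. After rescaling 11 were higher and 8 lower, with a median of 0.17. Ep300, a histone acetyltransferase, was at 8.92 ± 1.27 (SD, n = 9) and 5.08 ± 1.66 (SD, n = 23) without overlap on the deposited values, and Setd1a and Kmt2c, which methylate histone H3, differed by 3.57 and 2.68. Of 8 nuclear-retained long noncoding RNAs, 4 were higher and 0 lower, with a median of 1.18 (0.43 rescaled, 3 higher), and Rian and Malat1 differed by 3.17 and 1.89. Spliceosome and RNA-binding genes were evenly divided on the deposited values, with 7 higher and 7 lower of 38 and a median of 0.07 (-0.76 rescaled, 2 higher and 16 lower). Of 22 imprinted genes 8 were higher and 3 lower, with a median of 0.34 (-0.31 rescaled, 5 higher and 5 lower). Magel2 differed by 4.60 and Nnat by -2.57, so Peg3 stood at one end of a divided group. Of 10 measured hedgehog genes 2 were higher, Disp2 and the receptor gene Ptch1 at 3.06, and 0 lower, with a median of -0.20 over all 10.

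**Figure D3:**
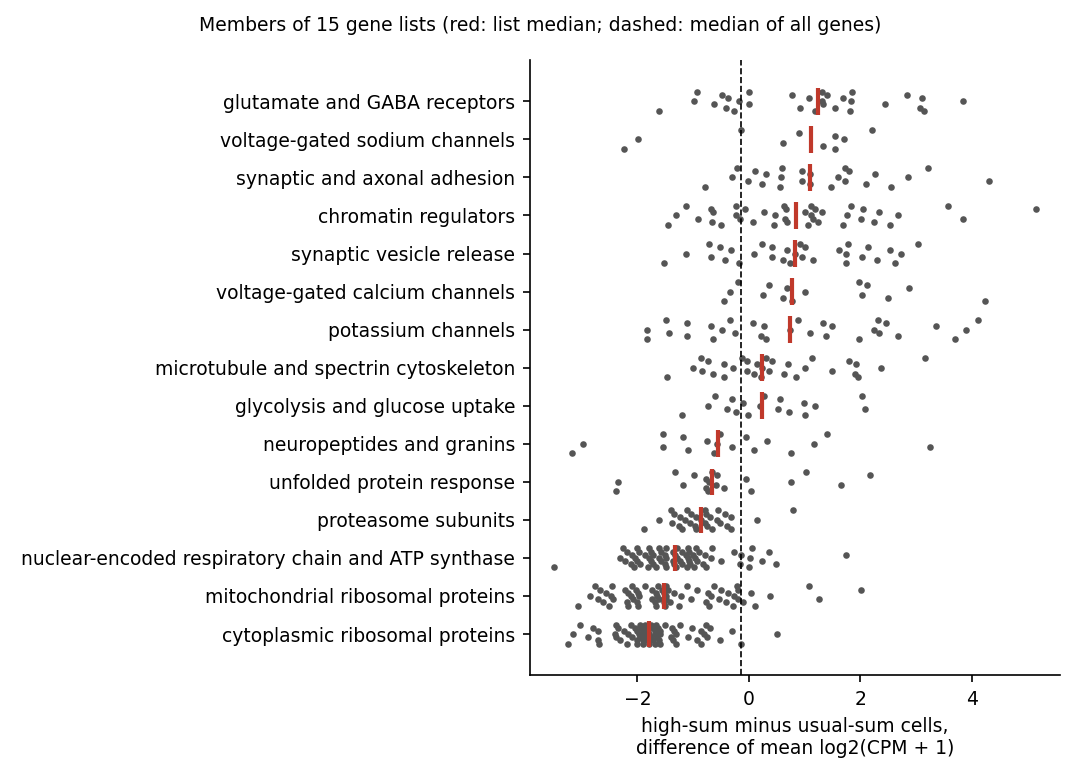
Difference of mean log2(CPM + 1) between the 9 high-sum and 23 usual-sum cells on the deposited values (horizontal axis) for the members of 15 gene lists (vertical axis); grey points are genes, red bars list medians and the dashed line the median of all genes, -0.14. Medians run from -1.79 for cytoplasmic ribosomal proteins to 1.25 for glutamate and GABA receptors.

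Lists of metabolism, stress and secretion had deposited medians between -0.67 and 0.40. Glycolysis and glucose uptake had 4 of 18 higher and 1 lower, with a median of 0.23 (-0.62 rescaled, 2 higher and 6 lower), and the neuronal enolase gene Eno2 was without overlap on the deposited values, at 11.44 and 9.35. Cholesterol synthesis had 8 of 22 higher and 2 lower (median 0.40, and -0.41 rescaled with 1 higher and 4 lower). Heat shock proteins had 1 of 15 higher and 2 lower (median -0.05, and -0.56 rescaled with 1 higher and 6 lower), with Dnajb1 at 2.95 and Hspe1 at -2.20. The unfolded protein response had 3 of 19 higher and 4 lower (median -0.67, and -1.52 rescaled with 1 higher and 13 lower), with the secreted factor gene Manf at -2.35 and Creld2 at 2.18. The mTOR list had 6 of 18 higher and 6 lower (median -0.45, and -1.02 rescaled with 3 higher and 10 lower), with Rptor, a core subunit of complex 1, at 3.18 and Lamtor3, part of its lysosomal anchor, at -3.22. Immediate early genes, which firing switches on, had 3 of 13 higher and 0 lower (median 0.28, and -0.16 rescaled with 3 higher and 2 lower), and their mean per cell ran from 2.73 to 8.52 in the 9 cells and from 1.48 to 6.96 in the 23. Neuropeptides, granins and their enzymes had 3 of 18 higher and 6 lower (median -0.55, and -1.03 rescaled with 2 higher and 9 lower), with Ecel1 at one end and Cartpt and Vgf, at -3.17 and -2.97, at the other.

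The genes by which HSD2 neurons are known did not go one way. Hsd11b2 was found in all cells and ran from 8.07 to 12.35 in the 9 (median 10.24) and from 6.75 to 10.26 in the 23 (median 8.59), a difference of 1.61 (0.76 rescaled). The groups overlapped, although the median of the 9 was close to the highest of the 23. Nr3c2, the mineralocorticoid receptor, ran from 6.91 to 9.76 (median 7.79) and from 0 to 7.87 in the 23 (of which 21 were above 0), a difference of 2.51 (1.69 rescaled). Agtr1a, the angiotensin II receptor, had means of 7.80 ± 2.60 (SD, n = 9) and 6.80 ± 1.98 (SD, n = 23), and Slc17a6, the vesicular glutamate transporter, of 9.55 ± 1.10 and 8.88 ± 0.79. Their differences after rescaling were 0.20 and -0.19.

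The peptide genes of this panel, Cartpt and Gal, differed by -3.17 and -1.53, and Ddc and Nr3c1 by -0.55 and -0.34. The SDs of Gal were 3.42 in the 9 cells and 3.79 in the 23. Cartpt, the CART peptide gene, ran from 0 to 7.59 (median 5.06) and from 4.61 to 10.94 (median 8.00). Ddc, which makes dopamine and serotonin from their precursors, had means of 8.30 ± 0.63 (SD, n = 9) and 8.85 ± 0.87 (SD, n = 23). The peptide gene Gal was found in 4 of 9 and 15 of 23 cells, and Nr3c1, the glucocorticoid receptor, in 5 of 9 and 15 of 23. Over the identity list 4 of 10 genes were higher by 1 and 3 lower, with a median of 0.16 (-0.45 rescaled, 1 higher and 4 lower).

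**Figure D4:**
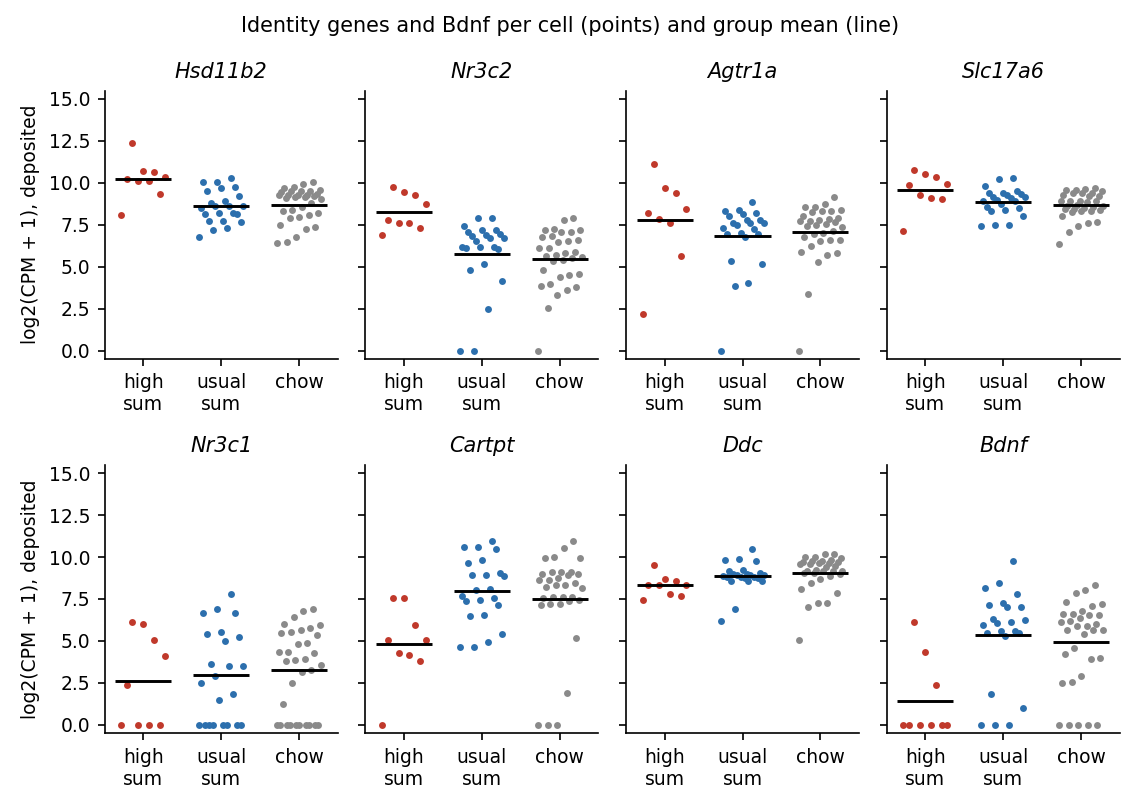
Deposited log2(CPM + 1) per cell (vertical axis) of 7 identity genes and Bdnf in the 9 high-sum, 23 usual-sum and 33 chow cells; points are cells and lines are group means. Hsd11b2 and Nr3c2 are higher in the high-sum cells, at means of 10.21 and 8.27, and Cartpt and Bdnf are lower, at 4.83 and 1.43.

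The label of the cells as neurons held in all 3 groups. At least 3 pan-neuronal markers exceeded 10 CPM in 9 of 9, 23 of 23 and 33 of 33 cells, and 2 of 9 compared were higher by 1 (Map2 and Syt1) and 1 lower (Rbfox3, at -2.06). Markers of other cell types were found in each group. At least 3 astrocyte markers were above 10 CPM in 3 of 9, 10 of 23 and 16 of 33 chow cells, and the summed level of that list ran from 82.5 to 2028 CPM in the 9 cells and from 1.37 to 1935 CPM in the 23. Of the 10 astrocyte markers, Slc1a3, Gja1 and Aldh1l1 were at 0 in all 9 cells, and none was at 0 throughout the 23 or the chow cells. The median summed level of the list was 289 CPM in the 9 cells and 230 CPM in the 23. Of the 5 astrocyte markers compared, 2 had a difference above 0 and 3 below. Oligodendrocyte markers were carried by 2 of 9, 11 of 23 and 12 of 33 cells. Their summed levels ran from 17.1 to 15520 CPM in the 9 cells (median 402) and from 44.7 to 1396 CPM in the 23 (median 230). Of the 9 cells, neuron 45 had all 7 measured markers above 10 CPM and neuron 47 had 3. All 4 markers compared had a difference below 0, with a median of -0.61. Vessel markers were carried by 1, 2 and 5 cells, ependymal markers by 0, 2 and 6, and no cell carried those of oligodendrocyte precursors, of which 1 gene was measured. The microglia list had 0 measured genes. With the 4 of 9 and 14 of 23 cells that carried any of these lists left out, the respiratory, cytoplasmic ribosomal and mitochondrial ribosomal lists lay at -1.33, -1.78 and -1.72 relative to all genes, where they were -1.19, -1.65 and -1.39 with all cells.

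Markers of other transmitters were also looked at. The GABA-making enzymes Gad1 and Gad2 were at 0 in all 9 cells and were found in 2 and 6 of the 23. A value of 0 says nothing of expression below the level of 1 read. The 9 cells were chosen by their sums and are not replicates, so they set no limit for other cells. Catecholamine markers were carried by 3 of 9, 6 of 23 and 12 of 33 cells, cholinergic ones by 1, 0 and 2, and those of erythrocytes by 3, 6 and 1. Dbh, which makes noradrenaline, was found in 5 of 9 and 10 of 23 cells.

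Genes with longer transcripts had the higher differences. A length, that of the longest transcript in GENCODE M21, was found for 94.0% of the 11875 genes and for 9967 of the 10534 with a mean of at least 1. Over 5 length classes of like size, from the shortest to the longest, the median difference was -0.76, -0.29, -0.07, 0.14 and 0.45. In the shortest class, up to 2106 bases, 41.0% were lower by 1 and 7.46% higher. In the longest, from 5625 bases, 12.1% were lower and 34.8% higher. Summed CPM of the shortest class was 0.87 times as high in the 9 cells as in the 23, and that of the longest 2.86 times. Spearman's rho between length and difference was 0.32 across the 9967 genes and 0.49 across the 1556 found in all 32 cells. For GC content rho was 0.04. For the difference of chow minus the same 23 cells the rho with length was -0.06, and the medians of the classes ran from 0.0041 to 0.11. These are across genes of the same libraries, which are not independent replicates, and the longest annotated transcript need not be the one a cell makes.

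**Figure D5:**
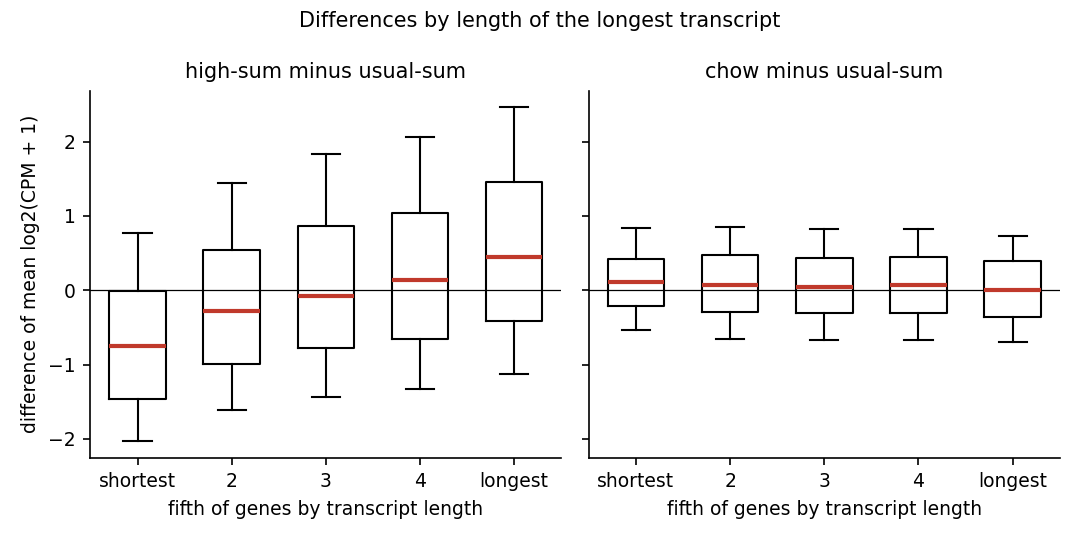
Differences of mean log2(CPM + 1) (vertical axis) of 9967 genes in 5 classes of transcript length (horizontal axis), for the 9 high-sum minus the 23 usual-sum cells (left) and the 33 chow minus the same 23 cells (right); boxes are quartiles, red lines medians and whiskers the percentiles 10 and 90. Medians run from -0.76 in the shortest class to 0.45 in the longest on the left and lie between 0.0041 and 0.11 on the right.

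The gene lists followed length only in part. The median length of the compared members was 1102 bases for cytoplasmic ribosomal proteins, 1186 for the respiratory chain and 2038 for mitochondrial ribosomal proteins. It was 5227 for glutamate and GABA receptors, 6667 for adhesion genes, 8386 for sodium channels and 8860 for chromatin regulators. The 3 lists of short genes had the low medians given above, but the order did not hold among the others. Cytoskeletal genes, at 6258 bases, had a median difference of 0.24, and the receptors, with shorter transcripts than the chromatin regulators, had the higher median difference. The part of transcript length, depth, RNA quality or handling in any of these differences was not tested. Rn45s held a median of 0.968% of reads in the 9 cells and 0.342% in the 23, and Malat1 held 0.276% and 0.134%. The groups overlapped in both, and depth was not matched. Rn45s ran from 0.491% to 1.24% in the 9 cells, within the 0.087% to 3.36% of the 23. In the 6 usual-sum cells of like depth it ran from 0.348% to 1.06%. Malat1 ran from 0.022% to 0.564% in the 9 cells, 0.0013% to 0.657% in the 23 and 0.064% to 0.446% in those 6.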

How the data were processed

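Single neurons were sequenced, and the authors deposited log2(CPM + 1) per gene and cell, per the file headers. The submitters' processing notes name featureCounts 1.4.6, HISAT2 2.0.5, SAMtools 0.1.19, Picard 2.5.0 and bcl2fastq, and the builds mm10 and GRCm38. The scaling is not given in the sources used here. CPM were recovered from the deposited log2 values. With 0.2 CPM added, their log2 values lie on a grid of 0.01 steps (largest deviation 5.0e-09), so high values are rounded. Values up to 20 reads were whole within 0.1 reads in 100% of cases, which gave reads per cell of 50081 to 5319479, and depth was taken from these. Of 12015 rows, 140 with repeated or serial names stayed in sums only.

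A difference is the mean log2(CPM + 1) of high-sum cells minus that of usual-sum cells, with a pseudocount of 1 CPM, and it is not the fold of mean CPM. No test was run. The scripts were tested on simulated data with 200 changed genes. The members, the limit of 1200000, the 36 gene lists and the naming rule were chosen with earlier results of these data known. The rule took genes above 0 in at least 16 of 32 cells, the 12 highest and 12 lowest rescaled differences on the same side of the median on both scales, the markers, the identity panel, up to 4 members per list, and genes without overlap after rescaling. Genes named for the excess or for lacking overlap on the deposited values only, Rn45s, and the markers Slc1a3, Gja1, Aldh1l1, Gad1 and Gad2 were chosen after their values were seen. Smart-Seq2 reads carry no molecular identifiers, and no limit is given for a count of 0. Lists were described over members with a mean of at least 1. In the mTOR list 1 member reached it only through the 9 cells. In the neuropeptide list 1 did so, and 2 reached it only through the 23. The vesicle release, adhesion, imprinted and cytoplasmic ribosomal lists each had 1 member that reached it only through the 23. A marker was present above 10 CPM, and a cell carried a type with 3 markers (2 for lists of 5 or fewer). Alternatives were other pseudocounts, averages, scales, depths, limits and left-out cells. Python 3.11.15, numpy 2.4.6, scipy 1.17.1, pandas 2.3.3 and matplotlib 3.10.9 were used, with GENCODE M21 for lengths and sequences. Some of the genes that the naming rule takes are not reported here.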

Additional observations from a re-analysis of the deposited data

Results flagged for a closer look

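Of 44 measures looked at over the 9 cells, 12 had 1 cell far from the other 8, meaning that its gap to the nearest exceeded 0.493 of the whole range. Chance flags about 1 in 20 such groups.

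Low-sodium neuron 51, which has the highest sum and the fewest reads of the 9 (218908), accounted for 6 of them. Its 20 highest genes held 12.7% of reads (next 9.71%) and its 500 highest held 68.2% (next 55.7%). It had the highest Ecel1, at 14.30 (next 13.08), and the highest Disp2, at 13.50 (next 12.79). Arsb and Tet2 were both at 3.45 there, where the next cells had 8.53 and 6.91. In this cell 1 read stands for 9.91 CPM.

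Low-sodium neuron 57 had the lowest Rpl38, at 2.40 (next 3.38), and the lowest Uqcr10, at 5.45 (next 5.77). Slc17a6 was 7.12 in neuron 42, against 9.06 in the next cell. Cartpt was 0 in neuron 49, where 1 read stands for 3.94 CPM, and 3.78 in the next. Camk2a was 9.67 in neuron 47 against 11.02, and Shisa7 was 0 in neuron 45 against 5.34.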

How the results depend on the processing

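No paired analysis was possible because each diet is 1 sample, the cells compared share a diet and no result comes from a test. No difference of the 27 genes followed (the markers and the 12 highest and 12 lowest, of which Ndufb4 is both) changed sign under any alternative run, nor did the values of the 6 lists followed (relative to the median of all genes). The ranked genes were taken for their large differences in these same cells, so their unchanged signs say little. The other lists were compared on the deposited and rescaled values only, where the spliceosome list lay at 0.21 and -0.10. Size factors by the median of ratios in place of rescaling gave 2650 genes higher and 1962 lower by 1, 98 and 5 without overlap (5 lower also in place of the deposited scale), and -1.11 and -1.32 for the respiratory and mitochondrial ribosomal lists. A pseudocount of 10 CPM left 1076 lower (deposited), 811 higher and 2624 lower (rescaled), -1.05 and -1.12 for the mitochondrial and -1.34 (rescaled) for the cytoplasmic ribosomal list. A difference of 2 left 871 and 499 genes (deposited) and 402 and 1303 (rescaled). The median over cells gave -1.70 for the mitochondrial ribosomal list. Thinning to 50000 reads gave -2.25 for the cytoplasmic list, -1.88 and -1.96 for the mitochondrial one, and 1 and 12 genes lower without overlap. A limit of 1000000, which moves 3 more cells into the high-sum group, left 1 and 0 genes without overlap (deposited), 0 and 2 (rescaled), the respiratory list at -0.57 and -0.82, the cytoplasmic at -0.93 and -1.15 and the mitochondrial at -1.13 and -1.24. The 6 usual-sum cells of like depth gave 164 lower (deposited), 49 and 455 (rescaled) without overlap, and list values of -2.02, -2.29, -2.18 and -1.67. Against chow 17 genes were lower without overlap. Leaving out cells with markers of any other type kept 2 and 5 cells, and gave 3992 lower (deposited) and 2180 higher (rescaled) genes, 635, 653, 398 and 1250 without overlap, and a rho with length of 0.17 and 0.21. Leaving out cells with glial or vascular markers, added after seeing the data, gave 2142 higher (rescaled), 178, 109, 78 and 399 without overlap, and -1.72 for the mitochondrial list. Fewer cells raise counts without overlap by construction. Leaving out each of the 32 cells in turn gave 10 to 22 genes lower without overlap on the deposited values, 22 without neuron 45 and 18 without neuron 50. It gave -1.651 (without neuron 51) to -1.308 for the mitochondrial ribosomal list. Genes found in all 32 cells had a rho of 0.49 on both scales.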
